A study of Rattus norvegicus with 47 samples.

Results

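The postsynaptic density is the protein mesh beneath an excitatory synapse that holds glutamate receptors in place and ties them to signalling enzymes and to the actin cytoskeleton. The 10 genes described here encode its scaffold proteins: 4 Dlg genes, Dlgap1, 3 Shank genes and 2 Homer genes. They were chosen by name, with earlier results of these data known, and all 10 were found among the 15319 genes of the count tables. In the mesh, the Dlg proteins (membrane-associated guanylate kinases with PDZ domains) bind receptors and ion channels near the membrane. Dlgap1, also called GKAP or SAPAP1, links the Dlg proteins to the Shank proteins below them, and Homer proteins join Shank to metabotropic glutamate receptors and to calcium channels of internal stores. In striatum the layer is best known from the spiny projection neurons, and in cerebellum from granule cells and Purkinje cells.

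The rats were Sprague-Dawley animals of both sexes that inhaled PCB52 (2,2′,5,5′-tetrachlorobiphenyl, a volatile polychlorinated biphenyl) by nose-only exposure, 4 h daily for 28 days, or were sham-exposed. Males entered the groups when 39 days old and females when 42 days old. RNA was sequenced from tissue punches. Striatum gave 4 sham male, 6 PCB52 male, 6 sham female and 6 PCB52 female libraries, and cerebellum gave 5, 5, 6 and 6 in that order. For 21 animals, 10 sham and 11 PCB52, both regions were available. A punch holds a mixture of cells, so fewer cells of a type and less RNA per cell cannot be told apart in any value below.

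Library totals ran from 5684508 to 8914523 counts in striatum and from 6524400 to 15865054 in cerebellum. The dopamine receptor gene Drd1, a marker of striatal projection neurons, stood between 196 and 467 CPM in striatum and at or below 9.43 CPM in cerebellum, where CPM is the usual depth-scaled count, taken over the library's TMM-adjusted total. The granule cell marker Gabra6 stood between 842 and 1203 CPM in cerebellum, and in striatum its median was 0.307 CPM and its highest value 67.6 CPM, in PCB52 female 22. Some libraries went against their labels in part. In 5 libraries, all sham and 4 of them cerebellar, the female transcript Xist and the male transcript Eif2s3y both exceeded 3 CPM. In 6 others a marker list of another tissue had a mean log2 CPM over 2 units higher than is usual for the region (its median). The list was that of cortical excitatory neurons in striatum PCB52 females 14 and 22 and PCB52 male 19, of olfactory bulb in striatum sham female 12, and of choroid plexus in striatum PCB52 female 20 and cerebellum sham male 1. PCB52 female 22 also held the highest cerebellar granule cell list mean of striatum, 4.91 against 2.28 in the next library, so it carried markers of the other region compared. The cortical list does not separate cortex from cerebellum. Its group means ran from 4.60 to 4.81 in cerebellum and from 1.93 to 3.28 in striatum. Its rise in PCB52 female 22 therefore cannot be assigned to cortex. Results that change without either set are given with and without it.

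The stretches of DNA before the starts of 3 members are shown because these members differed most between the regions: Homer1 and Dlg4 stood higher in striatum and Dlgap1 higher in cerebellum. Each is the 250 bases upstream of a start annotated by RefSeq on the assembly GRCr8, read 5′ to 3′ on the gene's strand. Capitals mark a match to TATAAA on either strand.
Homer1, chr2:26278762-26279011, + strand: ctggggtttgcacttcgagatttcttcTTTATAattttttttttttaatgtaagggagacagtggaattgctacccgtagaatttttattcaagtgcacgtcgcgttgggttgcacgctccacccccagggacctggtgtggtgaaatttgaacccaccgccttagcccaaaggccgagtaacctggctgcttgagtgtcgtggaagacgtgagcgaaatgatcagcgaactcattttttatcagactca
Dlg4, chr10:55239534-55239783, + strand: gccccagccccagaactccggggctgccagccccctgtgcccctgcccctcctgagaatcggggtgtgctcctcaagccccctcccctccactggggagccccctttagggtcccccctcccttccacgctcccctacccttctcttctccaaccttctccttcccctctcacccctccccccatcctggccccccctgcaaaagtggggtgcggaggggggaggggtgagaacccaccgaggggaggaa
Dlgap1, chr9:117613834-117614083, + strand: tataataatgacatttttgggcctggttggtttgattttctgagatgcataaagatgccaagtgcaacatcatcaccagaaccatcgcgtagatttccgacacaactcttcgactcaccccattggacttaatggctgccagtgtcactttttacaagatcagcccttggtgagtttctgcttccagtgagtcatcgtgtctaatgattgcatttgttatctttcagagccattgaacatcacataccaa
Dlgap1, chr9:117864208-117864457, + strand: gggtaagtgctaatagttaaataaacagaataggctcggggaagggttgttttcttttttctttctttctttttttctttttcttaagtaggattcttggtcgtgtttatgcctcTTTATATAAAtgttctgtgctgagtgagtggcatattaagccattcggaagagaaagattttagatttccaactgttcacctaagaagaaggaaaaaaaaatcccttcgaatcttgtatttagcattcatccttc
Of the 10 members, 6 had an entry in that table, with 7 windows in all, and Shank1, Shank2, Dlg3 and Homer2 had none. The Dlg4 window held 69.2% G and C, a share that 91.3% of all windows did not exceed, whereas the Dlgap1 windows held 42.0% and 34.4% and the Homer1 window 46.4%. The median over all windows was 51.2%. The Homer1 window held 12 CpG dinucleotides and the Dlg4 window 5, which is also the median of all windows. Motifs were searched on both strands of the 7 windows. TATAAA was found in the Homer1 window, 223 bases before the start, and in the second Dlgap1 window, and 12.9% of 33469 windows of the same length hold it. The E-box CACGTG, held by 5.59% of windows, was found only in the Dlg1 window, 62 bases before the start. The cyclic AMP response motif TGACGTCA (1.59% of windows), its core TGACG (18.2%, and part of the full motif) and the GC box GGGCGG (30.5%) matched none of the 7 windows.

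Transcript levels of the scaffold genes differed between the 2 regions in both directions. In sham animals 9 of 10 members differed between striatum and cerebellum by edgeR's quasi-likelihood test at an adjusted p of 0.05, with 6 higher and 3 lower in striatum. The background is high, since 69.8% of the 12446 genes tested were called, 34.3% higher and 35.5% lower, so the number of members called says little about them. The median log2 difference of the members was 0.51, beside -0.03 over all genes tested. The share of all genes whose regions did not overlap, or that kept the same direction in all animals, was not counted. Such traits of members below therefore have no background beside them. The plot of levels in each library shows all 10 genes.

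**Figure D1:**
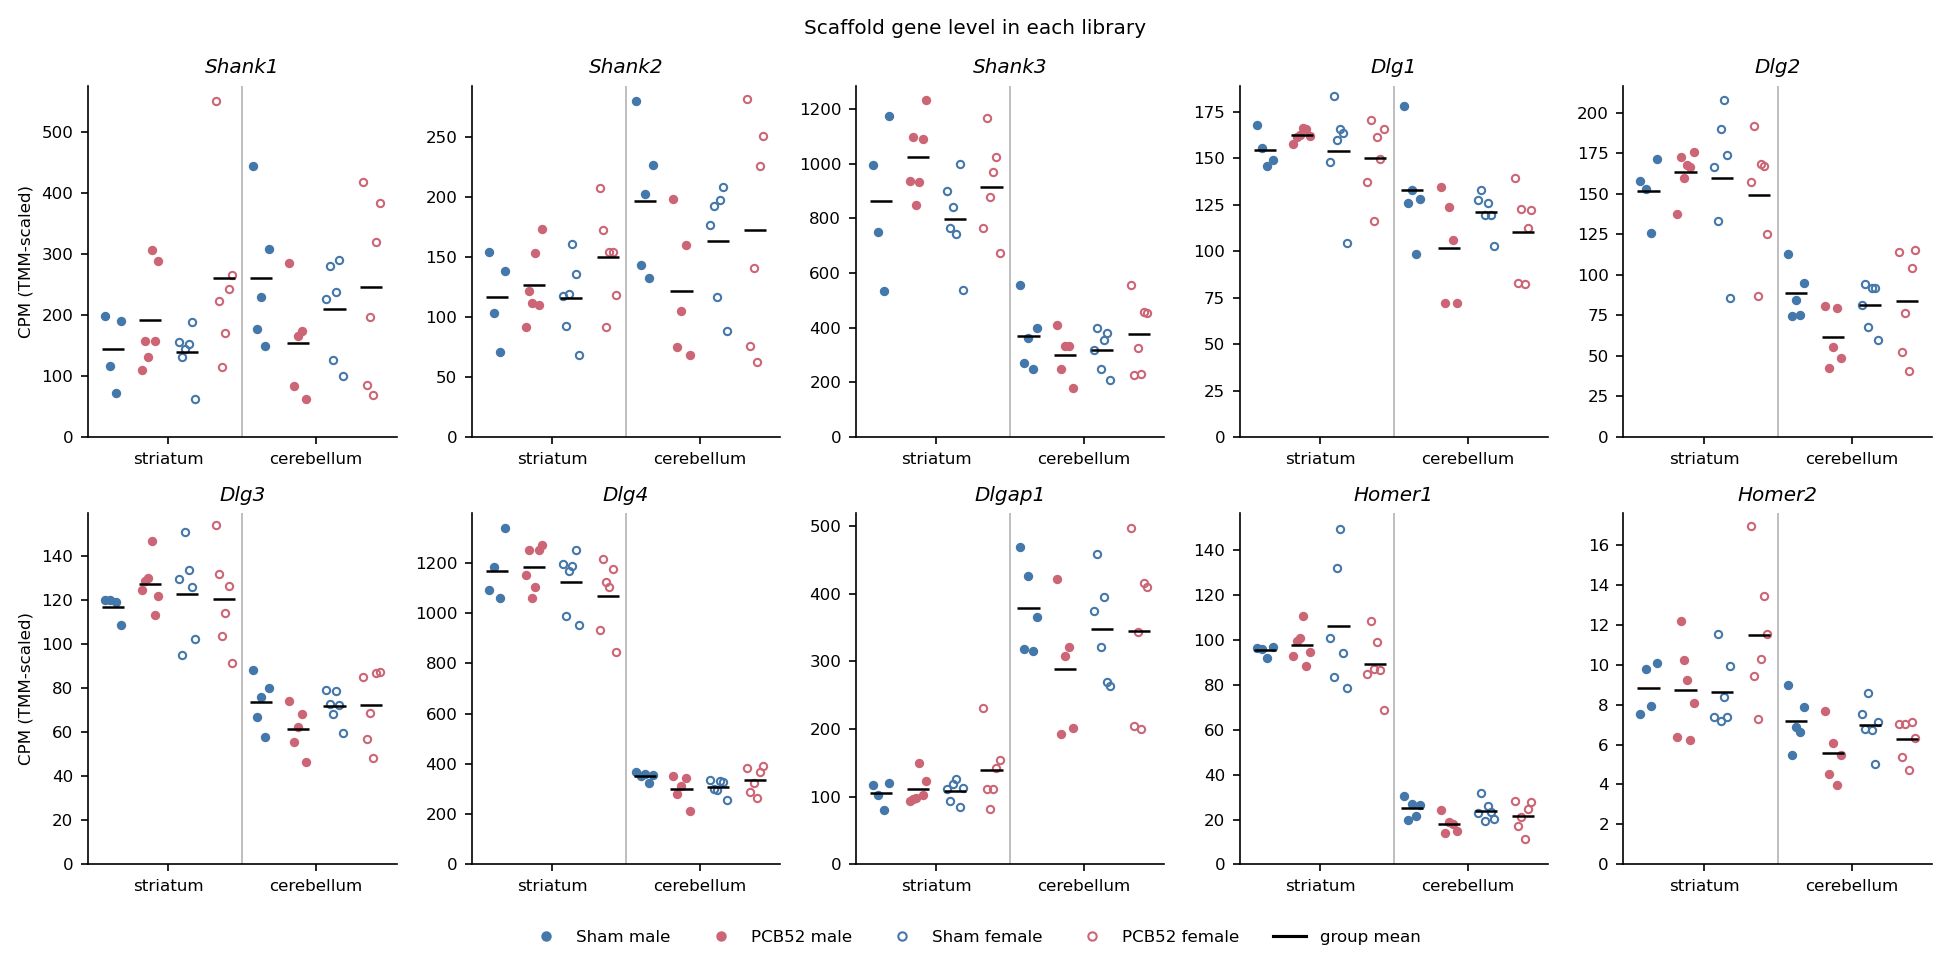
CPM (counts scaled to the TMM-adjusted library total, linear axis from 0) of the 10 scaffold genes in each of 44 libraries, by region, treatment (blue sham, red PCB52) and sex (filled male, open female), with bars at the group means. Homer1, Dlg4 and Dlg3 show no overlap between striatum and cerebellum in either treatment, while Shank1 and Shank2 spread widely in both regions. Overlap was not counted over all genes.

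Among the Dlg genes, Dlg4 differed most. Dlg4 encodes PSD-95, the main scaffold that anchors NMDA receptors and holds AMPA receptors through their auxiliary subunits. Its lowest, median and highest sham libraries stood at 953, 1176 and 1339.6 CPM in striatum and at 258, 333 and 368 CPM in cerebellum. The groups did not overlap, and striatum was higher in 21 of 21 animals (counts out of 21 take sham and PCB52 animals together). The mean was 3.48-fold higher in striatum, with a fitted log2 difference of 1.80 ± 0.08 (SE; edgeR adjusted p = 8.04e-22). Dlg3 encodes SAP102, a relative known for carrying NMDA receptors early in development. It stood at 94.8, 120.0 and 151 CPM in sham striatum and at 57.6, 72.5 and 88.4 CPM in sham cerebellum, again without overlap, and its log2 difference was 0.72 ± 0.10 (edgeR adjusted p = 6.39e-08). Dlg2 encodes PSD-93, which shares partners with PSD-95. Its sham levels were 85.6, 162 and 208 CPM in striatum and 59.7, 84.8 and 113 CPM in cerebellum, which overlapped between libraries, yet within an animal striatum was higher in 21 of 21. The log2 difference of Dlg2 was 0.88 ± 0.16 (edgeR adjusted p = 7.05e-06). Dlg1 encodes SAP97, which is also found along axons and in other tissues. It differed least of the 4, at 104, 158 and 183 CPM against 98.3, 126 and 178 CPM. Its log2 difference was 0.28 ± 0.11 (edgeR adjusted p = 0.0209), with striatum higher in 9 of 10 sham animals and in 18 of 21 animals. This call was lost without the libraries holding transcripts of both sexes, where the log2 difference was 0.21 (edgeR adjusted p = 0.140).

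Dlgap1 ran the other way. Its sham libraries stood at 80.8, 112 and 126 CPM in striatum and at 264, 365 and 469.6 CPM in cerebellum. No library of one region reached the other, and cerebellum was higher in 21 of 21 animals. The mean was 3.39-fold higher in cerebellum, with a log2 difference, striatum minus cerebellum, of -1.77 ± 0.17 (SE; edgeR adjusted p = 5.94e-12). The related genes did not follow it. Dlgap2 and Dlgap3 rose in striatum over cerebellum by 6.58 ± 0.29 and 2.86 ± 0.12 on the log2 scale (edgeR adjusted p = 9.97e-23 and 2.74e-23), and Dlgap4 by 0.62 ± 0.09 (edgeR adjusted p = 1.46e-07). Dlgap3, which encodes SAPAP3, is best known from striatum, where its loss in mice leads to excessive grooming.

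The 3 Shank genes split. Shank3 encodes the Shank protein best known from striatum, whose loss alters striatal synapses in mice. It stood at 536, 802.5 and 1176 CPM in sham striatum and at 209, 354 and 555 CPM in sham cerebellum. The regions overlapped only where the highest cerebellar library, sham male 1, exceeded the 2 lowest striatal ones, sham male 9 and sham female 12, and within animals striatum was higher in 21 of 21. The log2 difference of Shank3 was 1.28 ± 0.17 (edgeR adjusted p = 1.30e-08). Shank1 and Shank2 were lower in sham striatum. Shank1 stood at 62.2, 148 and 198 CPM in striatum and at 99.8, 229 and 443 CPM in cerebellum, with a log2 difference of -0.73 ± 0.31 (edgeR adjusted p = 0.0373). Shank2 stood at 68.7, 118 and 161 CPM against 88.7, 192 and 280.4 CPM, with a log2 difference of -0.63 ± 0.23 (edgeR adjusted p = 0.0162). In both genes the regions overlapped across libraries, and cerebellum was higher in 9 of 10 sham animals. Over both treatments cerebellum was higher in 14 of 21 animals for Shank1 and in 15 of 21 for Shank2.

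These 2 calls were the least stable. The Shank1 call was lost on leaving out any 1 of 8 sham libraries (cerebellum males 1 and 11 and females 4, 8 and 10, striatum males 3 and 9 and female 12), with log2 differences from -0.69 to -0.59. Without the libraries holding transcripts of both sexes the adjusted p was 0.130 for Shank1 and 0.0788 for Shank2, and without those with another tissue's markers it was 0.132 and 0.0751 (edgeR). The direction stayed the same in each case.

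The 2 Homer genes differed in size of effect. Homer1 had the largest ratio of the 10. Homer1 stood at 78.6, 96.3 and 149 CPM in sham striatum and at 19.6, 23.3 and 31.8 CPM in sham cerebellum. The groups lay far apart, with striatum higher in 21 of 21 animals. The mean was 4.18-fold higher in striatum, with a log2 difference of 2.04 ± 0.13 (SE; edgeR adjusted p = 1.20e-17). Homer1 gives rise to long scaffold forms and to a short form, Homer1a, that neuronal activity induces and that loosens the scaffold. Counts per gene do not tell these forms apart. Homer2 was the only member not called in sham animals. It was also low, at 7.20, 8.15 and 11.5 CPM in striatum and 5.02, 6.87 and 8.97 CPM in cerebellum, where its lowest sham library held 36 counts. Its log2 difference was 0.30 ± 0.14 (edgeR adjusted p = 0.0542), and DESeq2 called it (adjusted p = 0.0316), as did limma voom (adjusted p = 0.0400). With RLE size factors edgeR called it too (adjusted p = 0.0337). Without the libraries that held another tissue's markers it was called at 0.33 (edgeR adjusted p = 0.0398), and also on leaving out some single libraries. Homer3, the remaining gene of the family, known from Purkinje cells, was lower in striatum than in cerebellum by a log2 difference of -3.78 ± 0.13 (edgeR adjusted p = 8.72e-26).

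**Figure D2:**
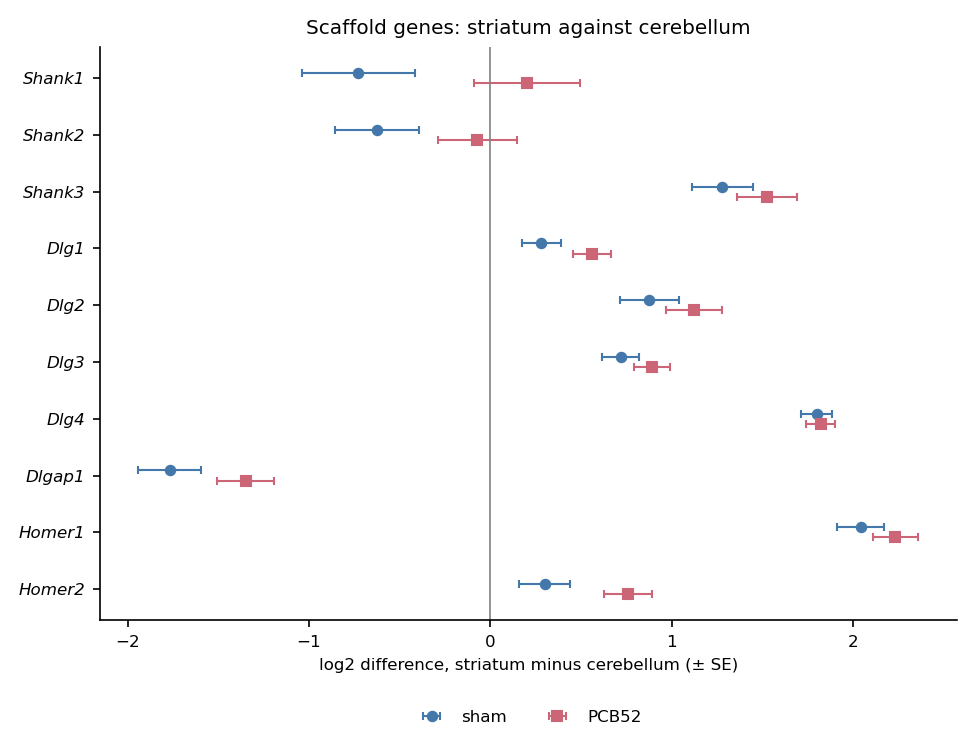
Fitted log2 difference, striatum minus cerebellum, of each scaffold gene with its standard error, in sham animals (circles) and PCB52 animals (squares), each as the mean of both sexes. Homer1 and Dlg4 lie near 2 in both treatments, Dlgap1 lies below -1, and Shank1 and Shank2 lie below 0 in sham animals and near 0 in PCB52 animals.

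In PCB52 animals 8 of 10 members differed between the regions, 7 higher and 1 lower in striatum, against a background of 76.9% called, 36.5% higher and 40.4% lower. Homer1 stood at 68.7, 93.7 and 111 CPM in striatum and at 11.5, 18.8 and 28.4 CPM in cerebellum, a log2 difference of 2.23 ± 0.13. Dlg4 gave 1.82 ± 0.08, Shank3 1.53 ± 0.16, Dlg2 1.12 ± 0.15, Dlg3 0.89 ± 0.10 and Dlg1 0.56 ± 0.10 on the same scale. Dlgap1 gave -1.35 ± 0.16, and 1 striatal library, PCB52 female 14 at 231 CPM, overlapped the cerebellar range. Homer2 passed here, at 0.76 ± 0.13 (edgeR adjusted p = 3.20e-06). Shank1 and Shank2 did not, at 0.20 ± 0.29 and -0.07 ± 0.22 (edgeR adjusted p = 0.536 and 0.770). The mean log2 CPM of 25 ribosomal protein genes was also taken as a covariate, with the same slope in both regions. This alternative was chosen after seeing the data. Under it both genes were lower in striatum, at -0.37 ± 0.13 and -0.50 ± 0.08 (edgeR adjusted p = 0.0114 and 1.19e-06). Shank1 was -0.079 without the libraries that held another tissue's markers. Shank1 was higher in striatum in 6 of 11 PCB52 animals and in 1 of 10 sham animals.

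That the regions differed by Shank1 in sham animals and not detectably in PCB52 animals does not show that exposure changed the difference, and a direct test did not call it. The striatal PCB52 effect minus the cerebellar one was positive for all 10 members, beside 49.1% of all genes tested, and edgeR called 0 of them, as it called 0 of all genes tested. At an unadjusted p under 0.05 there were 2 members, Shank1 and Homer2, against 18.3% of all genes. The log2 difference of effects was 0.93 ± 0.43 for Shank1 and 0.46 ± 0.19 for Homer2 (edgeR adjusted p = 0.268 for both). DESeq2 and limma voom also called 0 members, with 2 and 3 at an unadjusted p under 0.05. For these tools the share of all genes at that unadjusted p was not counted. The Shank1 value was 0.43 without the libraries that held another tissue's markers. It was 0.22 ± 0.19 with the ribosomal protein list as a covariate, and under that covariate Shank3, Dlg2, Dlg3, Dlg4 and Homer1 turned negative.

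The wider postsynaptic gene set was read for context from 6 lists, of which 64 of 67 genes were tested in the fit of both regions. In sham animals 39 were higher and 18 lower in striatum, beside 34.3% higher and 35.5% lower of all 12446 genes tested. The counts per list below stand against the same shares. Of the 4 other Dlgap and Homer genes, 3 were higher and 1 lower. Among glutamate receptors and their auxiliary subunits 8 of 16 were higher, led by Cacng8, Cacng3 and Grin2b with log2 differences of 3.32 ± 0.10, 3.82 ± 0.14 and 3.86 ± 0.17, and 7 were lower, among them Gria4 and Cacng7 with -2.32 ± 0.12 and -1.40 ± 0.07. Grin2b encodes an NMDA receptor subunit of the forebrain, and Gria4 an AMPA receptor subunit. Among signalling enzymes 7 of 11 were higher, with Camk2a, the alpha subunit of the calcium and calmodulin-dependent kinase, at 4.42 ± 0.16, and 2 were lower, among them Nos1 at -1.47 ± 0.40. Among adhesion genes 5 of 10 were higher and 3 lower. The actin-binding and adaptor list leaned most to striatum, with 9 of 11 higher, led by Actn2 at 8.52 ± 0.27, and 1 lower. Among 12 other PDZ proteins 7 were higher and 4 lower. The median log2 differences of the 6 lists, in that order, were 1.74, 0.34, 0.43, 0.21, 1.88 and 0.68, beside -0.03 over all genes tested.

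PCB52 exposure moved no scaffold gene past the threshold. In striatum of males edgeR called 0 of 10 members and 0 of all genes tested (percent called 0), and 0 members had an unadjusted p under 0.05, against 0.898% of 12142 genes. The 10 log2 differences, PCB52 minus sham, ran from -0.02 ± 0.22 in Homer2 to 0.41 ± 0.38 in Shank1. Dlg4 gave 0.01 ± 0.11 and Homer1 0.03 ± 0.14. The 4 sham male libraries of Homer1 stood at 96.5, 96.0, 92.0 and 96.8 CPM, and the 6 PCB52 male libraries ran from 88.5 over a median of 96.9 to 111 CPM, enclosing them.

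In striatum of females edgeR also called 0 members and 0 of all genes tested, and 2 members had an unadjusted p under 0.05, against 13.4% of genes. Shank1 had the largest difference. Its 6 sham libraries ran from 62.2 over a median of 148 to 187 CPM, and its 6 PCB52 libraries from 115 over 233 to 550.4 CPM. PCB52 females 14, 16, 22 and 24 lay above the sham range, while females 18 and 20 lay within it. The log2 difference was 0.92 ± 0.34 (edgeR adjusted p = 0.313). It was 0.55 without PCB52 female 14, the highest library, and 0.38 without the libraries that held markers of another tissue. Among females the latter setting left out PCB52 females 14, 20 and 22. It also left out sham female 12, the lowest sham library for Shank1 at 62.2 CPM, so it trimmed both groups. With the ribosomal protein list as a covariate the log2 difference was 0.29 ± 0.21. That list averaged 8.67 ± 0.37 in sham females and 8.36 ± 0.31 in PCB52 females (log2 CPM; SD, n = 6 each), and its part in the Shank1 difference was not tested further.

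Markers of cortical excitatory neurons varied widely among these libraries. The mean log2 CPM of the list, of which 9 of 10 genes were measured, averaged 3.06 ± 0.84 over the 6 sham female libraries and 3.28 ± 1.35 over the 6 of PCB52 females (± SD), a difference within the spread of either group. It ran from 1.62 to 4.85 in PCB52 females, from 1.58 to 4.00 in sham females, from 1.31 to 4.63 in PCB52 males and from 1.54 to 2.32 in sham males. PCB52 female 14, the highest library for Shank1, was also the highest for this list and for Tbr1, a transcription factor of deep cortical layers, at 47.7 CPM, where the median of striatum was 3.69 CPM and no library was at 0. The part of these cells in the Shank1 difference was not tested beyond leaving the libraries out.

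Without a covariate, the remaining members in striatum of females stayed closer to their sham values. Homer2 went from a mean of 8.62 ± 1.76 to 11.5 ± 3.37 CPM (SD, n = 6 each), a log2 difference of 0.41 ± 0.19 (edgeR adjusted p = 0.367). It was 0.27 without PCB52 female 14. Shank2 gave 0.38 ± 0.21, Dlgap1 0.37 ± 0.18, Shank3 0.20 ± 0.17 and Homer1 -0.25 ± 0.13. Dlg1, Dlg2, Dlg3 and Dlg4 all lay between -0.09 and -0.03. Averaged over the sexes, Shank1 gave 0.66 ± 0.26 and was the 1 member at an unadjusted p under 0.05 (adjusted p = 0.774 by edgeR's model across all genes), against 5.8% of genes, and edgeR called 0 members and 0 of all genes tested. The female effect minus the male effect called 0 members, with 0 at an unadjusted p under 0.05 against 3.88% of genes, and for Shank1 it was 0.51 ± 0.50 (edgeR adjusted p = 0.914). In females with the ribosomal protein list as a covariate, Dlg2 gave -0.39 ± 0.10 and Homer1 -0.37 ± 0.11 (edgeR adjusted p = 0.162 and 0.214). Under that covariate Dlg1, Dlg3 and Dlg4 lay between -0.16 and -0.12, Shank2 at -0.03, Shank3 at 0.03, Dlgap1 at 0.15 and Homer2 at 0.34.

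**Figure D3:**
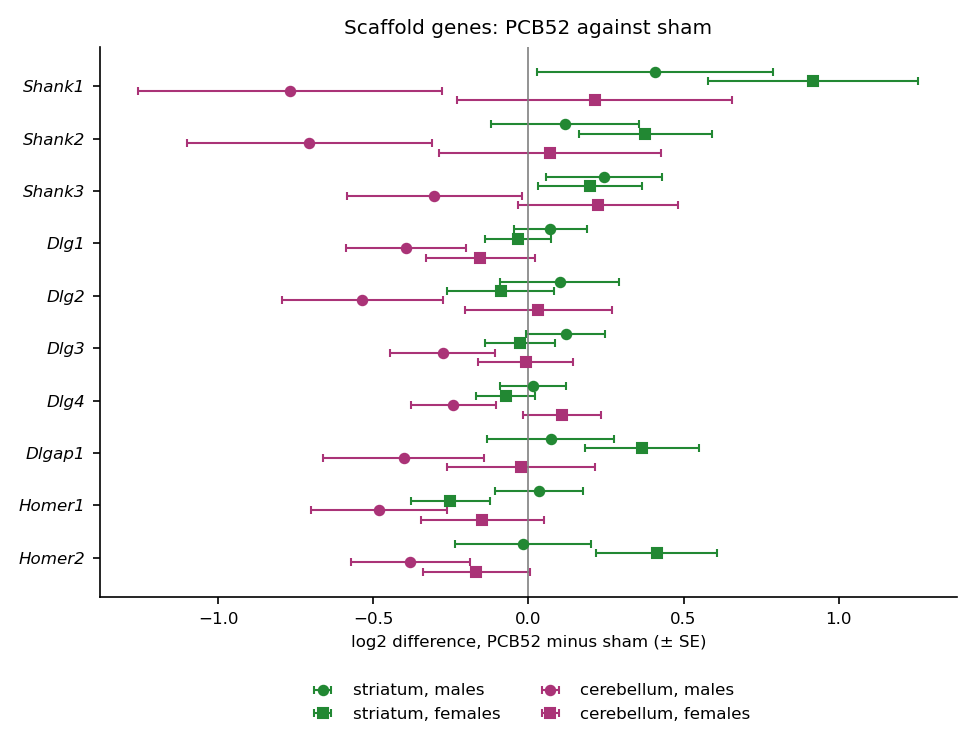
Fitted log2 difference, PCB52 minus sham, of each scaffold gene with its standard error, in striatum (green) and cerebellum (purple) of males (circles) and females (squares). All 10 genes lie below 0 in cerebellum of males, from -0.77 in Shank1 to -0.24 in Dlg4, and no gene passed an adjusted p of 0.05 in any of the 4 comparisons.

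In cerebellum of males all 10 members were lower in PCB52 animals, beside 49.3% of 11690 genes, and edgeR called 0 of them and 0 of all genes tested. At an unadjusted p under 0.05 there was 1 member, Homer1, against 14.3% of genes. Its sham libraries stood at 30.5, 19.8, 26.8, 21.4 and 26.6 CPM and its PCB52 libraries at 24.1, 14.1, 18.8, 18.1 and 14.9 CPM. The groups overlapped, with 4 of 5 PCB52 libraries below every sham library. The log2 difference was -0.48 ± 0.22 (edgeR adjusted p = 0.313). The Shank genes had larger but looser differences. Shank1 stood at 443, 177, 229, 149 and 307 CPM in sham males and at 284, 83.7, 166, 174 and 61.7 CPM in PCB52 males, with -0.77 ± 0.49. Shank2 gave -0.71 ± 0.39 and Shank3 -0.30 ± 0.28. The Dlg genes ran from -0.54 ± 0.26 in Dlg2 to -0.24 ± 0.14 in Dlg4, Dlgap1 gave -0.40 ± 0.26 and Homer2 -0.38 ± 0.19. The median of the members was -0.40, beside 0.01 over all genes.

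In cerebellum of females 5 members were higher and 5 lower in PCB52 animals. edgeR called 0 members and 0 of all genes tested, and 0 members had an unadjusted p under 0.05, against 3.16% of genes. The differences ran from -0.17 ± 0.17 in Homer2 to 0.22 ± 0.26 in Shank3, and Shank1 gave 0.21 ± 0.44 with PCB52 libraries from 69.3 to 418 CPM around sham libraries from 99.8 to 289.8 CPM. Averaged over the sexes, 3 members had an unadjusted p under 0.05, against 14.8% of genes: Dlg1 at -0.27 ± 0.13, Homer1 at -0.32 ± 0.15 and Homer2 at -0.27 ± 0.13 (edgeR adjusted p = 0.326 each). edgeR called 0 members and 0 of all genes tested. The female minus the male effect was positive for 10 of 10 members, beside 49.2% of genes, with 0 members and 0 genes called and 0 members at an unadjusted p under 0.05, against 2.17% of genes. DESeq2 and limma voom called 0 members in every PCB52 comparison of either region, with 3 and 4 members at an unadjusted p under 0.05 in cerebellum of males, 0 and 0 in cerebellum of females, 0 and 0 in striatum of males and 2 and 4 in striatum of females. Averaged over the sexes these counts were 1 and 1 in striatum and 3 and 2 in cerebellum. The share of all genes at that unadjusted p was not counted for DESeq2 and limma voom, so these counts have no background.

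No member passed the threshold between the sexes. Between females and males edgeR called 0 members in striatum of sham animals (0.0329% of genes called), striatum of PCB52 animals (0.0412%), cerebellum of sham animals (0) and cerebellum of PCB52 animals (0). No member had an unadjusted p under 0.05 in these 4 comparisons, against 2.55%, 4.69%, 1.05% and 3.24% of genes. DESeq2 and limma voom also called 0 members, with up to 1 and 2 members at an unadjusted p under 0.05 in a comparison. For these tools the share of all genes at that unadjusted p was not counted. The largest difference was 0.67 ± 0.47 for Shank1 in cerebellum of PCB52 animals.

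The 6 lists of other postsynaptic genes gave the same count. edgeR called 0 of 64 in striatum and 0 of 60 in cerebellum in every comparison of PCB52 with sham. In striatum of females 4 of 64 had an unadjusted p under 0.05, beside 13.4% of all genes. Grin2c had the lowest p of the receptor list, at 0.33 ± 0.11 (edgeR adjusted p = 0.303). Nlgn2, an adhesion protein of inhibitory synapses, had the lowest p of the adhesion list, at 0.29 ± 0.12 (edgeR adjusted p = 0.342). In cerebellum of males 5 of 60 did, beside 14.3% of all genes, and 52 of 60 were lower in PCB52 animals, beside 49.3% of all genes. Grin2b had the lowest p there, at -1.27 ± 0.39 (edgeR adjusted p = 0.313).

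In cerebellum the levels of the 10 genes varied from library to library, also within the groups. Shank1 spanned 7.18-fold over the 22 cerebellar libraries, Shank2 4.53-fold, Shank3 3.13-fold and Homer1 2.77-fold, while Dlg4 spanned 1.85-fold. They fell as the mean log2 CPM of a list of 25 ribosomal protein genes rose. For Shank1, Pearson's r was -0.97 and Spearman's rho -0.96 over 22 libraries (permutation p = 1e-05 for each, the smallest that 100000 resamples can give; adjusted p = 2.33e-05 and 2.62e-05 over 42 relations). Without PCB52 male 23 and female 20, the 2 libraries farthest from the median of the list, r was -0.96. Over the 10 members r ran from -0.97 in Shank1 to -0.60 in Homer2 with a median of -0.92, and all 10 had an adjusted permutation p under 0.05. After the group means were taken out, r still ran from -0.97 to -0.50. Such a relation was common: 35.0% of 11688 cerebellar genes had an r below -0.5, and 4.37% had one at or below that of Shank1.

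**Figure D4:**
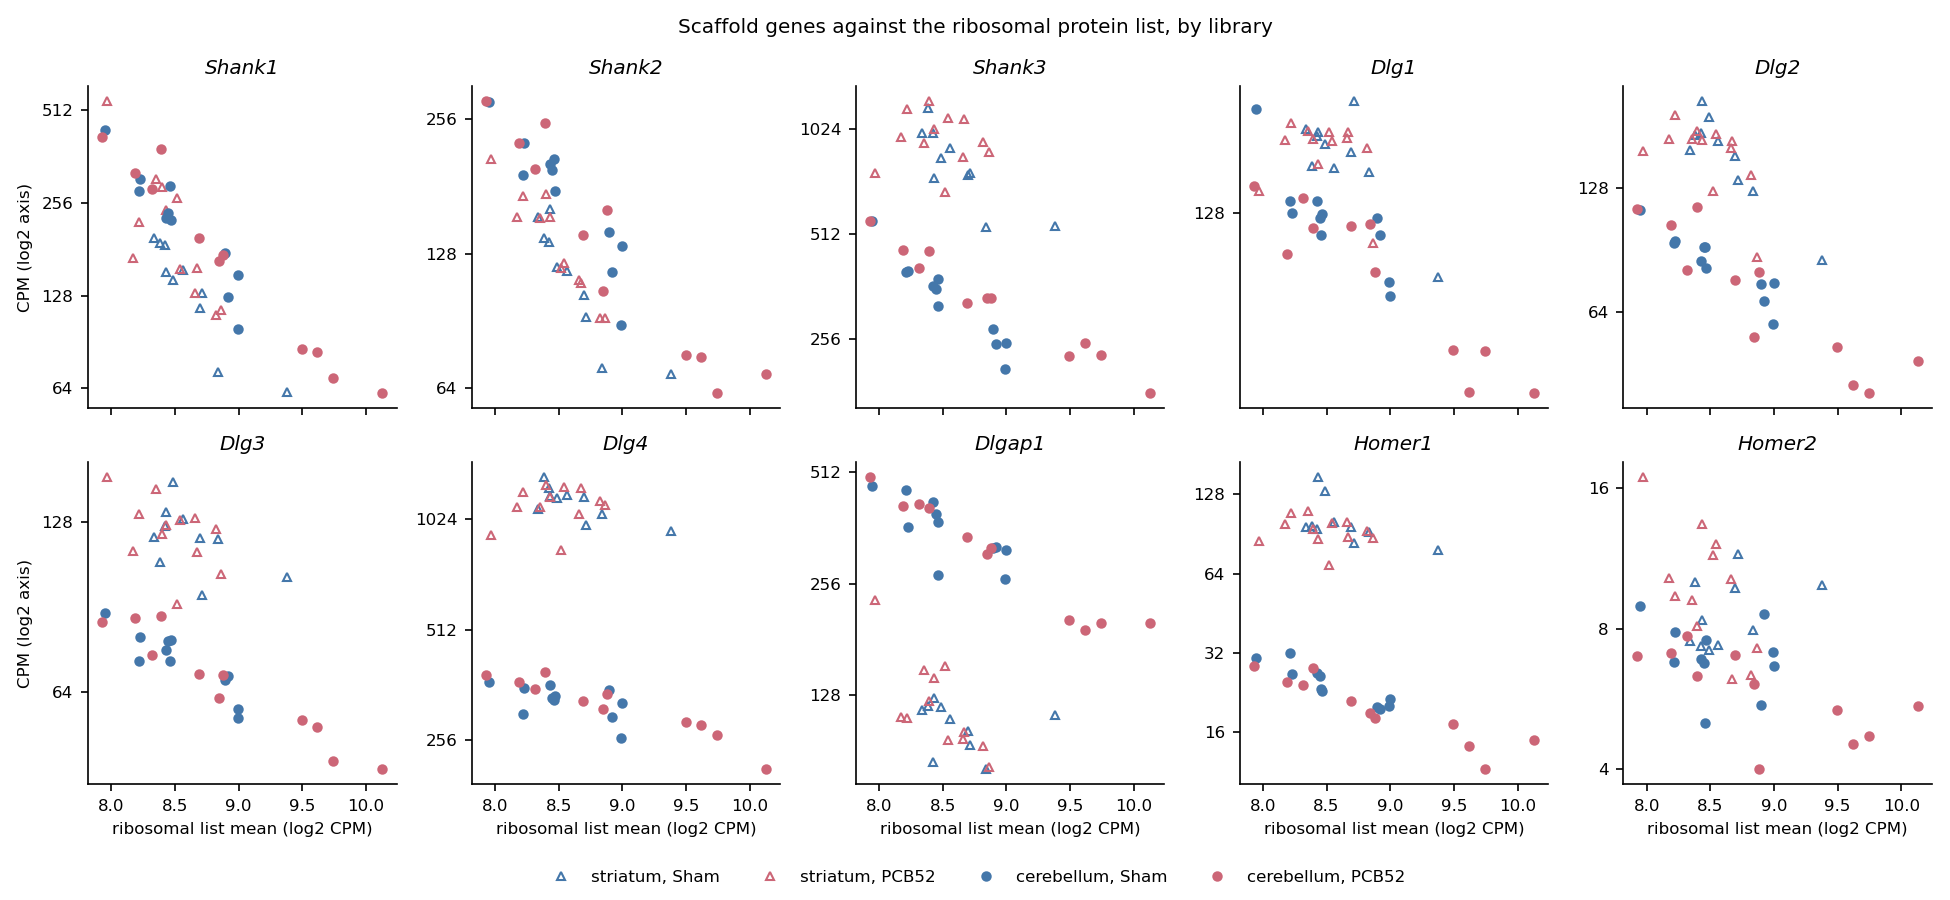
CPM on a log2 axis of each scaffold gene against the library's mean log2 CPM of 25 ribosomal protein genes, for striatum (open triangles) and cerebellum (filled circles) in sham (blue) and PCB52 (red) animals. Cerebellar levels fall along the x axis in each gene, and the 4 cerebellar libraries at the far right, from 9.50 to 10.13, are all from PCB52 animals.

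The list was not evenly spread over the groups. It stood at 8.50 ± 0.44 in cerebellum of sham males and 9.16 ± 0.71 in PCB52 males (SD, n = 5 each), and at 8.58 ± 0.30 and 8.74 ± 0.73 in sham and PCB52 females (SD, n = 6 each). PCB52 males 15 and 23 and PCB52 females 16 and 20 held the 4 highest values, at 9.62, 10.13, 9.50 and 9.74. With the list mean as a covariate, the log2 difference of PCB52 minus sham males was 0.09 ± 0.14 for Shank1, -0.02 ± 0.15 for Shank2, 0.22 ± 0.08 for Shank3 and -0.12 ± 0.11 for Homer1, and no member was called. Under it Shank3 gave 0.29 ± 0.07 in females and 0.26 ± 0.06 averaged over the sexes (edgeR adjusted p = 0.201 and 0.0825). In that average the other members ran from -0.17 in Homer2 to 0.16 in Shank1. What moves the list was not tested. Granule cell markers moved with the members as well, with r from 0.49 in Homer2 to 0.94 in Shank2 and all 10 adjusted permutation p-values under 0.05. The share of all cerebellar genes that moved with these markers was not counted. Without PCB52 male 23 and female 20, r for Homer2 was 0.38. As deviations from group means it was 0.40 (permutation p = 0.0648). The list of 11 granule cell genes averaged 8.58 ± 0.13 in sham males and 8.37 ± 0.24 in PCB52 males (log2 CPM; SD, n = 5 each), from 8.43 to 8.69 and from 8.03 to 8.68. Their part in the lower levels was not tested.

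In striatum the same relation was strong for part of the family. Against the ribosomal protein list Shank2 gave r = -0.93 and rho = -0.92, and Shank1 r = -0.86 and rho = -0.84 (22 libraries; permutation p = 1e-05 for each, adjusted p = 2.33e-05 for r and 2.62e-05 for rho). Without sham female 12 and PCB52 female 14, the 2 farthest libraries, r was -0.92 and -0.75. Only 0.641% of 12164 striatal genes had an r at or below that of Shank2, and 4.32% at or below that of Shank1. All 10 members had a negative r, and 7 had an adjusted permutation p under 0.05, among them Dlg2 at -0.74. The share of all genes that passed was not counted, and 25.2% of striatal genes had an r below -0.5. Dlg4 gave -0.18, Homer1 -0.30 and Homer2 -0.32, which did not pass (adjusted permutation p = 0.450, 0.201 and 0.171). As deviations from group means they gave -0.33, -0.53 and -0.18 (permutation p = 0.129, 0.0122 and 0.437).

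The members also parted in how they followed a list of 12 striatal projection neuron genes. Dlg4 (r = 0.69, rho = 0.34, permutation p = 0.00101 and 0.124, adjusted p = 0.00184 and 0.153) and Homer1 (r = 0.51, rho = 0.39, permutation p = 0.0209 and 0.0768, adjusted p = 0.0283 and 0.101) went up with it. Dlgap1 (r = -0.72, rho = -0.63, permutation p = 7.40e-04 and 0.00255, adjusted p = 0.00141 and 0.00487) went down. Shank1 and Homer2 gave r = -0.60 and -0.56 and rho = -0.61 and -0.46 (adjusted permutation p = 0.00711 and 0.0126 for r, 0.00614 and 0.0479 for rho). These relations rested in large part on PCB52 females 14 and 24, whose list means of 8.65 and 8.47 lay below the 9.23 of the next library. Without them r was 0.23 for Dlg4, 0.22 for Homer1, -0.45 for Dlgap1, -0.36 for Shank1 and -0.27 for Homer2.

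A relation of Homer1 with the genes that neuronal activity induces was not detectable. Against the mean of 16 such genes, among them Fos, Arc and Npas4, r was 0.27 in striatum (rho = 0.31, permutation p = 0.217 and 0.165, adjusted p = 0.253 and 0.192) and 0.23 in cerebellum (rho = 0.13, permutation p = 0.314 and 0.561, adjusted p = 0.340 and 0.589), over 22 libraries each. Without the 2 farthest libraries, PCB52 male 13 and sham female 12, the striatal r was 0.51. As deviations from group means, r was 0.25 in striatum and -0.08 in cerebellum.

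The genes whose log2 levels ran most like those of Homer1 and Shank1 differed between regions. Over 22 striatal libraries and 12060 genes, the genes closest to Homer1 included Dclk1 (r = 0.89) and Dgkb (0.89), and Shank1 was closest to Chd5 (0.96), Dscaml1 (0.95) and Ptprs (0.94). Dgkb encodes a diacylglycerol kinase abundant in striatum. Over 22 cerebellar libraries and 11588 genes, Homer1 was closest to Stt3a (0.98), Rbpj (0.97) and Stag2 (0.97), and Shank1 to Srgap3 (0.99), Eif4g3 (0.99) and Wnk2 (0.99). These values describe the libraries, which share depth and the ribosomal gradient above.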

How the data were processed

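Values are whole-number counts per gene, not normalized, that the authors deposited in 1 table per region. Per the submitters' processing notes the reads were checked with FastQC and aligned with HISAT2 to the rat build rn6. The counter, the use of strand and the enrichment of each library (poly(A) capture or removal of ribosomal RNA, per the labels' protocols) were not given in the sources used here. Reads of overlapping or antisense genes therefore could not be separated. A RefSeq table of GRCr8, used for names and promoter windows, named 15230 of the 15319 gene identifiers. Of 47 labelled samples 44 had counts. Not analysed here were sham male 5 in cerebellum and sham males 5 and 7 in striatum.

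edgeR 4.0.16 (R 4.3.3; TMM, default filter on low counts, robust quasi-likelihood F-test, two-sided) was fitted to all genes with 4 group means per region, or 8 for both regions, with Benjamini-Hochberg adjustment over all genes tested. A prior count of 2 entered log2 CPM. Each replicate is 1 animal. The lowest chi-square per degree of freedom between libraries of a group was 3.49, so none was treated as a repeat. Both regions of an animal share its number in the labels, and deviations of the paired libraries from their group means correlated from -0.41 to 0.51 (median 0.09). Without transcript lengths, levels were not compared between genes. All members are reported. From each of 6 postsynaptic lists the text draws on up to 3 genes per direction of lowest p that passed and averaged 1 CPM or more, or the 1 of lowest p where none passed. Some genes that this rule or the ranking by likeness picks are not reported here. The members and lists were chosen with earlier results of these data known. Alternatives were DESeq2 1.42.0, RLE size factors, no filter, limma 3.58.1 voom with sample weights, only the groups compared, the animal as a block, leaving out single libraries or the doubted ones, and the ribosomal list as a covariate, which was chosen after seeing the data. The scripts were tested on simulated counts.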

Additional observations from a re-analysis of the deposited data

Results flagged for a closer look

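Within single groups, 3 of 80 sets of member values held a library far from the others, where chance gives about 1 in 20. Shank1 stood at 550.4 CPM in striatum PCB52 female 14, with the next library at 266 CPM. That library also held the highest cortical marker list mean of striatum, as given above. Dlg3 stood at 108 CPM in striatum sham male 11, below the next library at 119 CPM. Homer1 stood at 92.0 CPM in striatum sham male 9, below the next at 96.0 CPM, in a group whose other libraries lay very close together.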

How the results depend on the processing

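In every PCB52 and sex comparison, and in the difference of the PCB52 effects between regions, the count of members called was 0 under all alternatives, with 0 to 0 on leaving out 1 library. The sham region count of 9 ran from 8 to 10 on leaving out 1 library and from 6 to 10 under other settings. The 6 came without libraries holding transcripts of both sexes, where 7944 of all genes were called. The PCB52 count of 8 ran from 8 to 8 on leaving out 1 library and from 8 to 10 under other settings. With the animal as a block, over the 21 paired animals, edgeR called 9 members in sham and 8 in PCB52 animals, the same genes as without it, and 0 for the difference of effects, so the block changed no call.

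The fit of both regions gave the ribosomal list the same slope in each region. For Dlg4 r with the list was -0.18 in striatum and -0.85 in cerebellum, and for Shank2 it was -0.93 and -0.95. With the list as a covariate all 10 members were called between regions in both treatments. The count says little about the members, since 10060 of 12446 genes tested in sham and 10143 in PCB52 animals were called with this covariate. Under it the sign of the log2 difference turned for Shank2 in striatum of females (-0.028), for Shank1 (0.087), Shank3 (0.22), Dlg3 (0.017) and Dlgap1 (0.015) in cerebellum of males, for Dlg3 (0.028) and Dlgap1 (0.016) in cerebellum of females, for Shank1 between regions in PCB52 animals (-0.37), and for Shank3 (-0.11), Dlg2 (-0.11), Dlg3 (-0.051), Dlg4 (-0.12) and Homer1 (-0.062) in the difference of effects. Without libraries holding another tissue's markers it turned for Dlgap1 (-0.035) and Homer1 (-0.0035) in striatum of males, for Shank1 between regions in PCB52 animals (-0.079) and for Dlg4 in the difference of effects (-0.0027). Without libraries holding transcripts of both sexes it turned for Homer2 in striatum of males (0.039) and Dlg3 in cerebellum of females (0.031). Under limma voom it turned for Dlg4 (-0.013) and Dlgap1 (-0.027) in striatum of males, Dlg3 (0.015) and Dlgap1 (0.074) in cerebellum of females, Shank1 between regions in PCB52 animals (-0.036) and Dlg4 in the difference of effects (-0.051), and with the block for Shank2 between regions in PCB52 animals (0.083).

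Leaving out 1 library turned only values without a call. In striatum of males these were Shank2 (-0.057 to 0.28), Dlg4 (-0.028 to 0.086), Dlgap1 (-0.036 to 0.14), Homer1 (-0.0050 to 0.060) and Homer2 (-0.13 to 0.062), and in striatum of females Dlg1 (-0.12 to 0.031), Dlg2 (-0.22 to 0.028) and Dlg3 (-0.11 to 0.039). In cerebellum of females these were Shank1 (-0.0060 to 0.41), Shank2 (-0.13 to 0.24), Dlg2 (-0.082 to 0.18), Dlg3 (-0.073 to 0.086) and Dlgap1 (-0.16 to 0.095). Between regions these were Shank2 in PCB52 animals (-0.16 to 0.051) and Dlg4 in the difference of effects (-0.029 to 0.057). The correlation of Homer1 with activity-induced genes in cerebellum turned to -0.083 as deviations from group means. The cause of these changes was not tested.

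Over the 10 members in the 3 region comparisons and the 4 comparisons of PCB52 with sham within a sex, 2648 values under an alternative kept their direction and side of the threshold, 13 lost a call, 24 gained one without a change of sign and 75 turned sign. Counts limit Homer2 most, with 32 counts in its lowest library, and Homer1 in cerebellum, with 83.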
